A study of Mus musculus with 7 samples.

Results

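The genes that break down heme and handle its iron were read here in mouse liver cells: Hmox1, Blvrb, Slc11a1, Tfrc, Fth1 and Slc40a1. These 6 genes, of 12393 measured, were chosen by symbol, with earlier results of these data known, and every probe set annotated to 1 of them alone was used, which gave 13 probe sets, 3 of them array controls for Tfrc. RNA came from a feeder cell layer of fetal liver (1 array), unsorted liver endothelial progenitors (1 array), and progenitors positive for the stem cell antigen Sca1 (Sca1+, 2 arrays) or negative for it (Sca1-, 3 arrays). The titles name fetal liver for the feeder layer alone. The labels give no strain, age, genotype or treatment for any group. They do not say whether animals were pooled or whether replicates came from separate cultures. A p-value here therefore reflects array-to-array spread that could be technical. The titles name the progenitors endothelial, but on most arrays most of the endothelial genes read had low signals, as the values below show. In RNA of mixed cells, fewer cells of a type cannot be told apart from less RNA per cell.

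Liver macrophages take up worn-out red cells and free the iron held in their heme. Heme oxygenase 1 opens the heme ring and releases iron and biliverdin, biliverdin reductases turn biliverdin into bilirubin, ferritin stores the iron, and ferroportin, the iron exporter encoded by Slc40a1, returns it to the blood. Transferrin receptor 1 brings transferrin-bound iron into dividing and erythroid cells. Iron-regulatory proteins stabilize the Tfrc transcript and block translation of the Fth1 and Slc40a1 transcripts when iron is scarce, so that the level of a transcript need not follow that of its protein.

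The arrays differ in ways that touch the results below. They fall into a first deposit set (feeder, unsorted and replicate 1 of each fraction) and a second (Sca1+ replicate 2, Sca1- replicates 2 and 3), a split read from the sample numbers and from the software and dye notes, which only the second set carries. The 3' over 5' control signal of Actb, a ratio which is larger where transcripts are shortened or less fully copied, was 1.03 on the feeder array, 1.01 on the unsorted array, 6.83 and 2.37 in Sca1+ cells and 13.5, 1.87 and 1.91 in Sca1- cells. The feeder array comes from a separately deposited table of another platform. The leukocyte gene Ptprc had signals of at least 3302 on every array, whereas the endothelial gene Pecam1 had at most 206. Among other endothelial genes, Eng had 184 to 749 and Kdr 141 to 432 over the arrays. Of 16 pan-endothelial genes, between 4 and 11 exceeded a signal of 100 on an array, against 7576 to 9413 of all 12393 genes. The highest counts over 100 were 11 on the unsorted array and 10 on Sca1+ replicate 2, against 9413 and 8194 of all genes. The highest background control was 170 on the unsorted array and on Sca1- replicate 1, above this threshold. Erythroid transcripts were low: the summed signal of 16 erythroid genes was 1114 on the feeder array, 1692 on the unsorted array, 1159 and 1450.0 in Sca1+ cells and between 1359 and 1623 in Sca1- cells, against 86872 or more for 22 macrophage genes.

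Between the sorted fractions the heme and iron genes did not separate beyond the spread of the arrays, although Blvrb and Slc11a1 had higher signals, and Slc40a1 lower ones, in both Sca1+ replicates than in any Sca1- replicate. With limma over 8591 genes, 0 of the 6 genes passed an adjusted p of 0.05 with fraction as the only term (smallest unadjusted p = 0.0904 for Blvrb), where 0% of all genes were called higher and 0% lower in Sca1+ and where 1.11% and 2.29% of genes had an unadjusted p under 0.05. Under a deposit-set block, again 0 of the 6 passed, against 0% of all genes called higher and 0.989% called lower. At an unadjusted p under 0.05 the block gave 1 of the 6 (Blvrb), higher, against 7.67% of all genes higher and 7.82% lower. The fractions did not overlap for 2 of the 6 genes with Sca1+ higher (12.1% of all genes tested) and for 1 of the 6 with Sca1+ lower (8.45%). These are counts over 6 genes only. All signals were rescaled so that each array had a trimmed mean of 500, and a difference is Sca1+ minus Sca1- in log2 units, with signals under 64 set to 64. All 6 genes passed the filter on low signal.

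**Figure D1:**
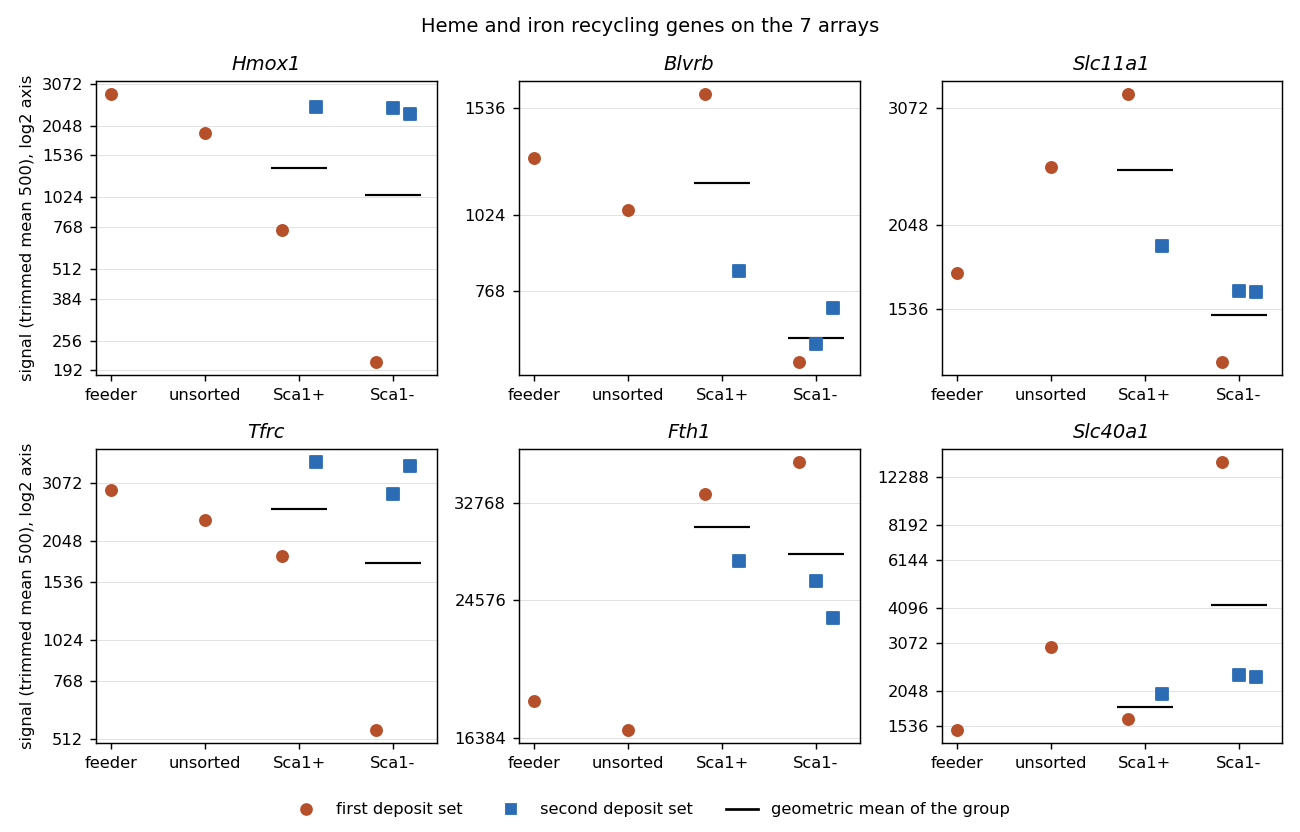
Signal of each gene's main probe set (trimmed mean 500, log2 axis) on the 7 arrays, by group; circles are the first deposit set, squares the second, and bars the geometric mean of a sorted fraction. Both Sca1+ arrays lie above all Sca1- arrays for Blvrb and Slc11a1 and below them for Slc40a1, while Fth1 lies lowest on the feeder and unsorted arrays, an order that turned with quantile normalization.

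Hmox1 (GRCm38.p6 chromosome 8, 75093618 to 75100593) encodes the enzyme that opens the heme ring, and it is strongly induced by heme and oxidative stress. Its signal was 747 and 2461 in Sca1+ cells, against 208, 2431 and 2294 in Sca1- cells. The fractions overlapped, and the low values were those of the first-set array in each fraction. The difference was 0.37 ± 1.13 (SE; 95% CI -2.31 to 3.04; limma adjusted p = 0.9995), and 0.82 ± 0.41 under a deposit-set block (adjusted p = 0.385). The first set alone gave 1.84 and the second 0.06. The second set exceeded the first 3.29-fold in Sca1+ and 11.4-fold in Sca1-, and Hmox1 was the single gene of the 6 that stood at least 2-fold higher in both fractions, as did 9% of all genes tested, and 0 of the 6 stood 2-fold lower, as did 4.9%. Without Sca1- replicate 1 the difference between the fractions was -0.80, and without Sca1+ replicate 2 it was -0.49. Fibroblast transcripts were also low on the first-set sorted arrays: the summed signal of 15 fibroblast and mesenchymal genes was 102054 on the feeder array, 85217 on the unsorted array, 11068 and 125772 in Sca1+ cells and 6364, 51586 and 48228 in Sca1- cells. The part of these transcripts or of the 3' to 5' ratio in the low Hmox1 values was not tested.

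Blvrb (chromosome 7, 27447978 to 27465981) encodes biliverdin reductase B, which reduces the beta isomer of biliverdin as well as flavins. It had signals of 1615 and 827 in Sca1+ cells, against 586, 627 and 719 in Sca1- cells. No Sca1- array reached the lower Sca1+ value. The difference was 0.85 ± 0.43 (95% CI -0.17 to 1.87; limma adjusted p = 0.9995), a 1.80-fold higher mean, and 0.80 ± 0.33 under a deposit-set block (adjusted p = 0.321). Within the first set it was 1.46 and within the second 0.30, so the first-set pair carried most of it. The related reductase gene Blvra had 3831 and 1288 in Sca1+ cells, against 2152, 1237 and 1086 in Sca1- cells. These fractions overlapped, and the highest Blvra value, like that of Blvrb, was on Sca1+ replicate 1.

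Slc11a1 (chromosome 1, 74375014 to 74386057) encodes the NRAMP1 transporter, which moves iron and manganese out of the phagosome of macrophages and neutrophils. Its signal was 3218 and 1910 in Sca1+ cells, against 1279, 1635 and 1628 in Sca1- cells. The arrays did not overlap between the fractions. The difference was 0.72 ± 0.40 (95% CI -0.24 to 1.68; limma adjusted p = 0.9995) and 0.70 ± 0.30 under a deposit-set block (adjusted p = 0.335). The first set alone gave 1.33 and the second 0.23. Macrophage transcripts were read beside Blvrb and Slc11a1: 15 of 19 tested macrophage and Kupffer cell genes had a difference above 0, against 55.9% of all genes tested, and the fractions did not overlap for 5 of the 19 with Sca1+ higher (12.1% of all genes) and for 1 with Sca1+ lower (8.45%). The summed signal of the 22 measured macrophage genes was 168282 and 126400 in Sca1+ cells and 143981, 117631 and 107220 in Sca1- cells. Lyz2 alone had 39708 and 24437 in Sca1+ cells and 79825, 33569 and 29443 in Sca1- cells. The sum on Sca1- replicate 1 therefore rests largely on this gene. The part of macrophage content in the Blvrb and Slc11a1 values was not tested.

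The promoters of Blvrb and Slc11a1 are shown because these were the genes that stood higher on both Sca1+ arrays. RefSeq (GRCm38.p6) gave promoter entries for 4 of the 6 genes, 7 in all, and the 250 bases before each start were searched on both strands for the PU.1 core GAGGAA (a motif of a macrophage and granulocyte transcription factor), the antioxidant response element core TGACNNNGC (bound by NRF2), the E-box CACGTG and the GC box GGGCGG (bound by SP1). The first Blvrb entry covers chr7:27447728-27447977 on the plus strand, with 62% G and C, and 4 GC boxes, all read on the minus strand and shown in capitals:
Blvrb promoter: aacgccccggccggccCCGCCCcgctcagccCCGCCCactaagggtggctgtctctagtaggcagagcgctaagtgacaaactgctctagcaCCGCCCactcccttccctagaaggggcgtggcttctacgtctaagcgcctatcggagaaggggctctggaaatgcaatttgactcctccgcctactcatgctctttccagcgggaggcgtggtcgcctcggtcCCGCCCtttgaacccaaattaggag
The Slc11a1 entry held a PU.1 core from 152 to 147 bases before the start of that entry. That start and the core both lie inside the gene's stated bounds, so the core lies after the gene's stated start of 74375014. The core is given in capitals within 30 bases at chr1:74375039-74375068, plus strand:
Slc11a1 PU.1 core: gggtatccaggaGAGGAAcgaaggtcaaaa
Of 32851 mouse promoter entries, 23.3% held a PU.1 core, 32.7% a GC box, 10.2% an antioxidant response element core and 6.02% an E-box. In the 7 entries of these genes, GC boxes were also found in the second Tfrc entry and the second Fth1 entry, and no antioxidant response element core or E-box was found. A match in these windows is a description of the letters and not a measured binding site.

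Tfrc (chromosome 16, 32608896 to 32632794) encodes transferrin receptor 1 (CD71), the main route of iron uptake in dividing cells. Its main probe set had 1842 and 3558 in Sca1+ cells, against 545, 2854 and 3459 in Sca1- cells. As with Hmox1, the fractions overlapped and the first-set array was the lowest of each. The difference was 0.55 ± 0.83 (95% CI -1.41 to 2.51; limma adjusted p = 0.9995) and 0.85 ± 0.38 under a deposit-set block (adjusted p = 0.343), with 1.76 from the first set alone and 0.18 from the second. Without Sca1- replicate 1 it was -0.30. Mitotic genes were read beside it: the summed signal of 15 G2 and M phase genes was 8372 and 6233 in Sca1+ cells and 14876, 17261 and 18495 in Sca1- cells. The part of cell division in the Tfrc values was not tested. The fibroblast sums given for Hmox1 had their lowest values on the same 2 sorted arrays as Tfrc, and their part in it was not tested.

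The other Tfrc probe sets read the gene differently. A second one had 1128 on the feeder array and 688 on the unsorted array, against 134 and 101 in Sca1+ cells and 113, 156 and 131 in Sca1- cells. It was thus low on all 5 sorted arrays and several times higher on the feeder and unsorted arrays, whereas the main probe set did not show this. The remaining one had 150 on the feeder array, 124 on the unsorted array and no more than 78.4 in a sorted sample. The 3' control probe set of Tfrc, which is meant to report RNA quality, had 313 on the feeder array, 283 on the unsorted array and no more than 94.8 in a sorted sample, close to the highest background control of 51 to 170 on these arrays. The middle and 5' control probe sets of Tfrc had at most 71.4 on any array, so that no 3' to 5' ratio of Tfrc could be read above background. The labels give no position of a probe set in its transcript.

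Fth1 (chromosome 19, 9980600 to 9985111) encodes the ferritin heavy chain, which oxidizes iron for storage, and it was among the 40 highest genes of 12393 on every array. Its main probe set had 33607 and 27642 in Sca1+ cells, against 36942, 25995 and 23345 in Sca1- cells. The fractions overlapped widely, with a difference of 0.11 ± 0.41 (95% CI -0.85 to 1.08; limma adjusted p = 0.9995) and 0.04 ± 0.22 under a deposit-set block (95% CI -0.50 to 0.58; adjusted p = 0.949). The second probe set gave 27833 and 28022 in Sca1+ cells and 28214, 24329 and 25098 in Sca1- cells, a difference of 0.11. Leaving out Sca1+ replicate 1 gave -0.029 by the main probe set, and leaving out Sca1- replicate 3 gave -0.024. Of the 6 genes Fth1 varied least, with a 1.58-fold range over the 5 sorted arrays, against a median of 2.49-fold over all genes tested with the floor.

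Slc40a1 (chromosome 1, 45908070 to 45926532) encodes ferroportin, the known iron exporter of mammalian cells, and was the single gene of the 6 with a lower mean log2 signal in Sca1+. Its main probe set had 1620.0 and 1993 in Sca1+ cells, against 13838, 2337 and 2299.6 in Sca1- cells. The arrays did not overlap, but Sca1- replicate 1 stood far above the other Sca1- replicates, whose mean was 0.168 of its signal. The difference was -1.23 ± 0.81 (95% CI -3.14 to 0.69; limma adjusted p = 0.9995) and -1.45 ± 0.60 under a deposit-set block (adjusted p = 0.324). The first set alone gave -3.09 and the second -0.22, and the difference was -0.37 without Sca1- replicate 1. The second Slc40a1 probe set gave the same order of fractions, with 306 and 583 in Sca1+ cells against 1110 (Sca1- replicate 1), 666 and 656 in Sca1- cells, and a difference of -0.89. Granulocyte transcripts were also highest on Sca1- replicate 1: the summed signal of 13 granulocyte genes was 145922 and 9918 in Sca1+ cells and 622194, 235743 and 209548 in Sca1- cells. The part of these cells in the Slc40a1 values was not tested.

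**Figure D2:**
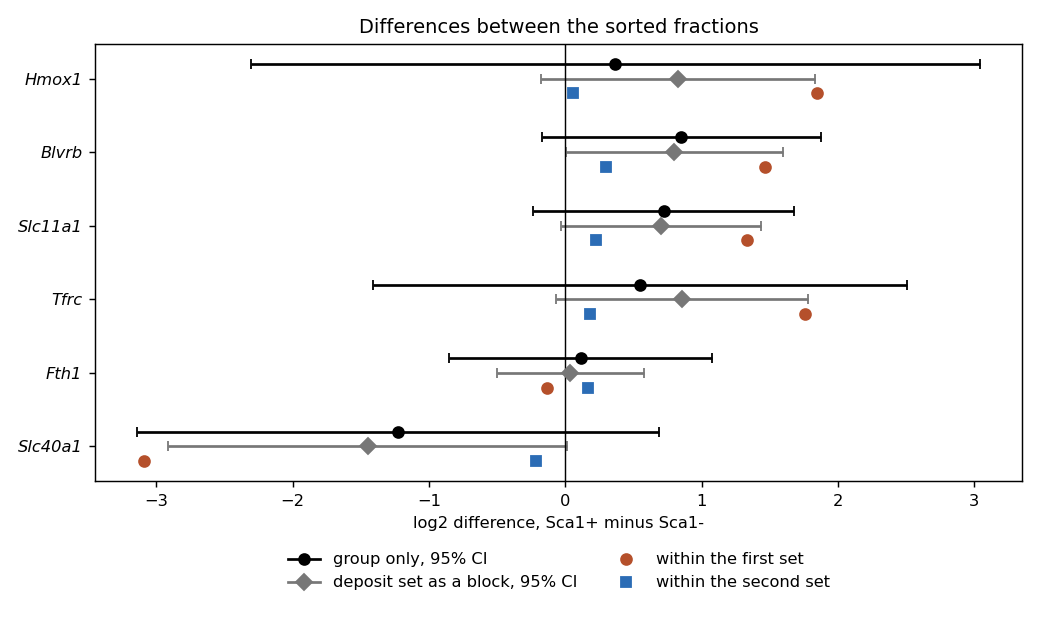
Log2 difference between Sca1+ and Sca1- for each gene (x axis), from limma with fraction only (black circles, 95% CI), under a deposit-set block (grey diamonds, 95% CI), and within each set with no interval (coloured points). The first-set values lie farther from 0 than the second-set values for all genes but Fth1; they are 1.84 and 0.06 for Hmox1 and -3.09 and -0.22 for Slc40a1.

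The ratio of the Slc40a1 probe sets to each other differed between arrays. The main probe set read 1.53-fold the other on the feeder array, 1.59-fold on the unsorted array, 5.29-fold and 3.42-fold in Sca1+ cells and 12.5-fold, 3.51-fold and 3.51-fold in Sca1- cells. The arrays with the largest Actb 3' to 5' ratio (13.5 on Sca1- replicate 1, then 6.83 on Sca1+ replicate 1) also had the largest Slc40a1 ratio, and the feeder and unsorted arrays had the smallest of both. For Tfrc the main probe set read 2.60-fold and 3.45-fold the second one on the feeder and unsorted arrays, again the smallest ratios. It read 13.7-fold and 35.3-fold in Sca1+ cells and 4.81-fold, 18.4-fold and 26.4-fold in Sca1- cells, without the Actb order. On the sorted arrays the second Tfrc probe set had 101 to 156, where the highest background control was 51 to 170. These sorted Tfrc ratios thus divide by signals near background. The 2 Fth1 probe sets kept a ratio between 0.764 and 1.08 on all 7 arrays. Whether transcript shortening sets the Slc40a1 ratio was not tested.

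**Figure D3:**
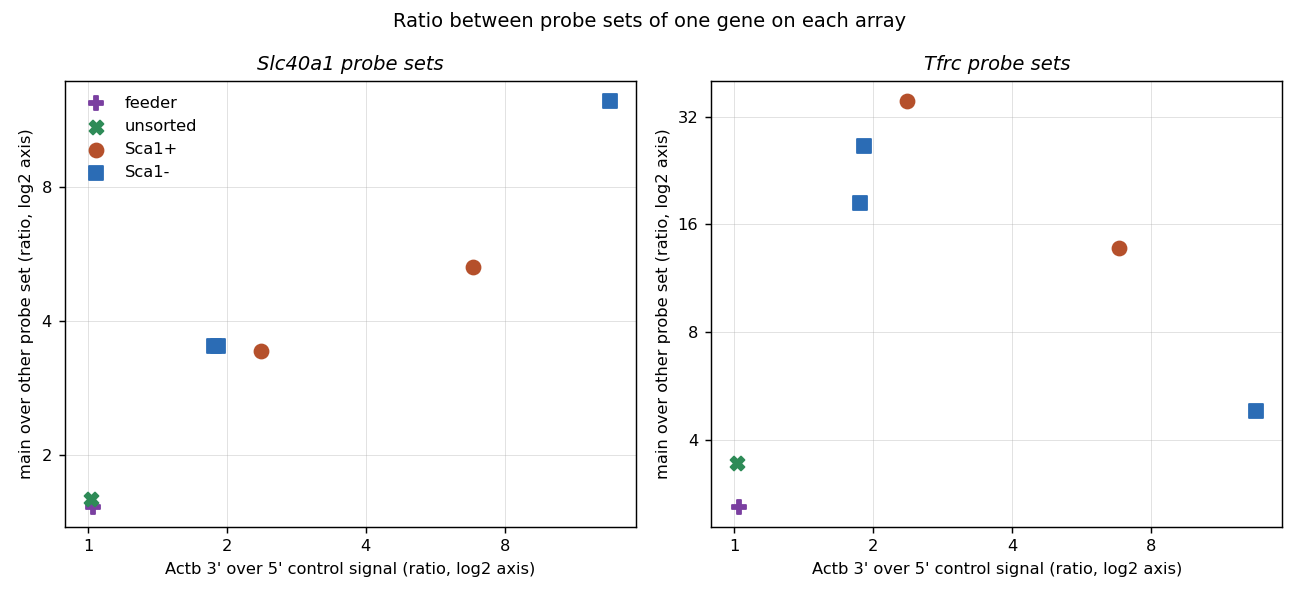
Ratio of the main to the second probe set of Slc40a1 (left) and Tfrc (right) on each array against the 3' to 5' control ratio of Actb, all on log2 axes. The Slc40a1 ratio is lowest (1.53 and 1.59) on the feeder and unsorted arrays and highest (12.5) on Sca1- replicate 1, whose Actb ratio of 13.5 is the largest.

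Within their own deposit set, 4 of the 6 genes (Hmox1, Blvrb, Slc11a1 and Tfrc) had each Sca1+ array above every Sca1- array in both sets, as did 26.2% of all genes tested, and 1 (Slc40a1) below in both, as did 18.9%. The second-set differences were small, between -0.22 and 0.30, and rest on 1 Sca1+ and 2 Sca1- arrays. Without both first-set sorted arrays, 0 of the 6 genes passed.

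Feeder cells and unsorted progenitors had 1 array each, in separately deposited tables, so no test was made. Hmox1 had 2766 on the feeder array and 1899.9 on the unsorted array, 1.46-fold higher. Slc40a1 had 1480.7 and 2972 on its main probe set and 967 and 1868 on the other, 2.01-fold and 1.93-fold lower on the feeder array. Both probe sets therefore gave a similar step, at a like Actb ratio of 1.03 and 1.01. Slc11a1 had 1739 on the feeder array and 2503 on the unsorted array, Tfrc 2932 and 2370.3, Blvrb 1270.0 and 1042, and Fth1 18268.5 and 16770.5. By main probe set, 1 of the 6 genes (Slc40a1) was 2-fold or more lower in the feeder layer, like 15.9% of 9751 genes, and 0 were 2-fold or more higher, like 4.08%.

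Against the sorted fractions, Fth1 was lower on both the feeder and the unsorted array than on any of the 5 sorted arrays, by each of its probe sets, and this direction turned with quantile normalization. The feeder signal of 18268.5 was 1.60-fold below the mean of the fractions and the unsorted signal of 16770.5 was 1.75-fold below it; the other probe set, with 15811 and 15388, gave 1.70-fold and 1.75-fold. Of 9891 genes, 9.71% lay below all sorted arrays on both of these arrays; on the unsorted array alone 14% did, and 35.4% lay above all, with 0 of the 6 genes above. After quantile normalization the log2 differences were 0.40 for the feeder and 0.38 for the unsorted array in place of -0.68 and -0.81. Fth1 ranked 9th of all genes by signal on each of these arrays, 16th and 13th in Sca1+ cells and 40th, 26th and 24th in Sca1- cells, and the highest gene signal was 21331 on the feeder array and 21793 on the unsorted array, against 40221 or more on the sorted arrays. The scale of the topmost signals thus differed between these arrays, and its part in the Fth1 values was not tested.

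Hmox1 was 2.32-fold higher on the feeder array than the mean of the fractions and above each sorted array, as were 23.7% of 9946 genes, and was 1.59-fold higher on the unsorted array, within the sorted range. Slc40a1 was 1.86-fold lower on the feeder array by its main probe set but 1.68-fold higher by the other, and on the unsorted array 1.08-fold and 3.24-fold higher. The direction on the feeder array therefore depended on the probe set. Tfrc was 1.38-fold and 1.12-fold higher on the feeder and unsorted arrays by its main probe set, and 9.09-fold and 5.55-fold by the second one. That second Tfrc probe set had only 101 to 156 on the sorted arrays, where the highest background control was 51 to 170. Blvrb was 1.47-fold and 1.21-fold higher, and Slc11a1 1.11-fold lower and 1.30-fold higher. Scaling by the median gave all genes a median unsorted difference of -0.38, against 0.28, and it turned the unsorted differences to -0.053 for Hmox1, -0.61 for Slc40a1, -0.56 for Tfrc, -0.45 for Blvrb and -0.35 for Slc11a1. By main probe set, 1 of the 6 genes (Hmox1) was 2-fold or more higher in the feeder layer (12.1% of genes) and 0 lower (7.1%), and 0 were at least 2-fold apart on the unsorted array (21.6% higher and 6.83% lower among 10510 genes).

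Across all groups, Hmox1 was ordered feeder, unsorted, Sca1+, Sca1- by mean log2 signal, but the feeder, the unsorted and the second-set arrays lay within 1.46-fold of one another. Blvrb was ordered feeder, Sca1+, unsorted, Sca1-, and Slc11a1 unsorted, Sca1+, feeder, Sca1-, with the first pair close together. The feeder and unsorted values of Blvrb lay between the Sca1+ arrays, as did the unsorted value of Slc11a1, while its feeder value of 1739 lay between the lower Sca1+ array (1910) and the highest Sca1- array (1635). By the main Tfrc probe set the feeder and unsorted values lay inside the range of each fraction, and by the second one they lay above all 5 sorted arrays.

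Genes with the most similar pattern over the 6 arrays of the larger table were found by the root mean square difference between log2 signals centred on each gene's mean. Closest to Hmox1 were Odr4 (0.13), Uqcr10 (0.15) and Sash1 (0.16), where the median over all genes was 1.31. On Sca1- replicate 1, Odr4 had 70.2 and Uqcr10 had 124, below the highest background control of 170 on that array. Closest to Slc40a1 were Zyx (0.15), Smpd5 (0.16) and Golim4 (0.23), with a median of 1.17. Zyx, which encodes a focal adhesion protein, had 10285.5 on Sca1- replicate 1 and at most 2281 on the other 5 arrays, so the match rests largely on that array. Slc11a1 lay nearest to the adhesion receptor gene Icam1 (0.07), Rragc (0.07) and Lrrc59 (0.10), and Tfrc to U2af1 (0.11), Selenoh (0.13) and the mitochondrial chaperone gene Hspa9 (0.13). Nearest to Fth1 were Inpp5d (0.05), Ahsa1 (0.06) and Emp3 (0.07), and to Blvrb Hspb11 (0.09), Map3k8 (0.10) and Lrrc59 (0.11). Lrrc59 was thus among the nearest genes of both Slc11a1 and Blvrb.

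Other genes of iron and heme metabolism, from 6 lists, also gave 0 calls with fraction only. Of 45 tested, 26 (57.8%) had a difference above 0, with a median of 0.15 against 0.07 for all genes. The fractions did not overlap for 9 of them with Sca1+ higher (12.1% of all genes) and 6 with Sca1+ lower (8.45%). Under a deposit-set block 0 passed higher (0% of all genes) and 3 passed lower in Sca1+ (0.989%), all in the iron uptake list. They were Hp, which encodes the haemoglobin-binding protein haptoglobin (-3.46, limma adjusted p = 0.0468), Lcn2, whose product binds iron-loaded siderophores (-4.64, adjusted p = 0.0357), and Ltf, which encodes lactoferrin (-4.22, adjusted p = 0.0423). Lcn2 and Ltf are also in the granulocyte list, of which 7 of 13 genes passed lower in the same fit. Hp is not in that list, but among the sorted arrays it was, like Lcn2 and Ltf, highest on Sca1- replicate 1 (41967) and lowest on Sca1+ replicate 2 (432). The part of granulocytes in these values was not tested.

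Other genes of iron transport did not pass. Slc39a14, which encodes an importer of iron that is not bound to transferrin, had 747 and 474 in Sca1+ cells against 231, 336 and 298 in Sca1- cells (1.06 ± 0.43). Slc25a37, mitoferrin 1, which carries iron into mitochondria, had 377 and 497 against 771, 783 and 811 (-0.86 ± 0.37). The fractions did not overlap for either gene, as for 12.1% of all genes tested with Sca1+ higher and 8.45% with Sca1+ lower. Hfe, which tunes hepcidin and iron uptake, had 1656 and 695 in Sca1+ cells against 371, 643 and 619 in Sca1- cells (1.02 ± 0.52), again separated. These genes were named for p-values among the smallest of their lists in this same comparison, so their separation is partly a product of that choice.

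The heme genes named here went both ways. Of 6 tested genes in the heme breakdown and transport list, 5 had a difference above 0 (83.3%, against 55.9% of all genes tested). The median of this list was 0.52, with 0 called. The heme and drug exporter gene Abcg2 had 276 and 296 in Sca1+ cells against 98.5, 97.6 and 168 in Sca1- cells (1.29 ± 0.45). The highest background control was 170 on Sca1- replicate 1, above its Abcg2 signal, and 88.2 on Sca1- replicate 2, close to it. Heme synthesis begins with the enzymes of Alas1 and, in erythroid cells, Alas2. Alas1 had 838 and 631 in Sca1+ cells against 1693, 1234 and 1528 in Sca1- cells (-1.02 ± 0.38). Alas2 had 13.6 and 26.6 in Sca1+ cells, below the highest background control of each array, against 202, 140 and 139 in Sca1- cells, above it. The floor of 64 limits the size of its difference (-1.30 ± 0.43). The 12 heme synthesis genes had a median of -0.06, with 0 called, and 6 of them were above 0. Abcg2, Alas1 and Alas2 were also named for p-values among the smallest of their lists in this same comparison. Their separation is thus partly a product of that choice.

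Regulators that act on these genes showed no call between the fractions either. Bach1, a heme-sensing repressor of Hmox1, had 2265 on the feeder array and 2673 on the unsorted array. Both lay below the 6103 and 3813 of the Sca1+ arrays and the 6967, 4221 and 4592 of the Sca1- arrays, as did 9.71% of 9891 genes. These comparisons had no test, and Bach1 was named for a difference among the largest of its list. A link to the Hmox1 values was not tested. The signal exceeded by 1% of genes was 7539 on the feeder array and 6739 on the unsorted array, against 9630 or more on the sorted arrays. The part of this difference in scale in the Bach1 values was not tested. Of 12 tested genes of the NRF2 and BACH1 list, 0 passed in either direction and the median was -0.01. Aco1, which encodes iron-regulatory protein 1, had 1222 and 1447 in Sca1+ cells against 371, 905 and 1072 in Sca1- cells (0.90 ± 0.54).

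**Figure D4:**
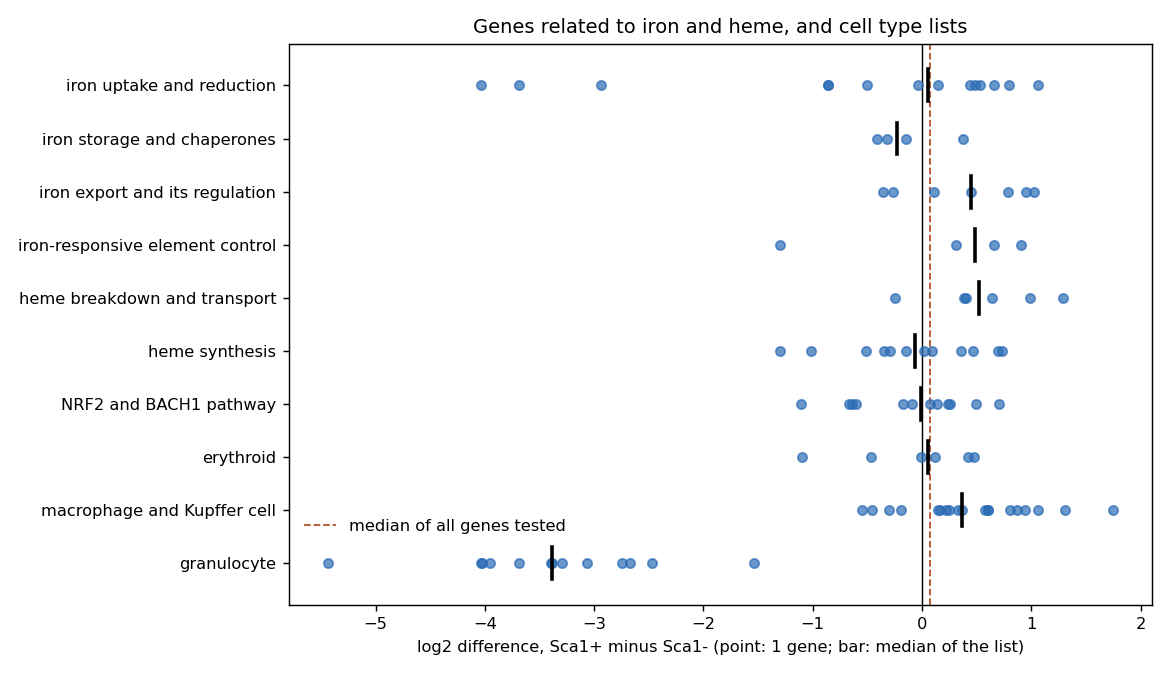
Log2 difference between Sca1+ and Sca1- (x axis) of each tested gene (points) in the iron, heme and cell type lists, with the median of each list (black bar) and of all genes tested (dashed line, 0.07). The iron and heme medians lie between -0.23 and 0.52, while granulocyte genes have a median of -3.39 and include Lcn2 and Ltf of the iron uptake list.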

How the data were processed

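RNA of 7 arrays was read as 1 intensity per probe set, a linear signal that the authors deposited with a trimmed mean of 250.07 to 250.15. GCOS is named for the second deposit set, per the submitters' processing notes; that of the others is not given in the sources at hand. Groups and replicate numbers came from titles (a title with no number: replicate 1), and the deposit sets were inferred.

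Arrays were rescaled to a 2% trimmed mean of 500, floored at 64 and put on the log2 scale. Of 22690 probe sets, 64 are controls and 20380 have 1 gene; each gene was read by its brightest probe set. Genes with a signal over 100 in at least 2 of 5 sorted samples (8591) were tested with limma 3.58.1 in R 4.3.3 (intensity trend, 1 mean per group over the 6 arrays of the larger table, 3 residual degrees of freedom, 2 with the block, Benjamini-Hochberg), a fit checked on simulated data. Comparisons with the feeder or unsorted array have no test. Probe sets for bacterial transcripts served as background controls, which holds only if none were added to the samples. Probe sets shared between genes were left out.

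The 6 genes and all lists were chosen with earlier results of these data known. Also named were up to 4 genes per list with the smallest p (or, untested, the largest difference) and the 3 nearest patterns; the block value of Hp was named after it was seen. Alternatives were other scalings, floors, filters, probe set rules, blocks and leaving out arrays. Figures were drawn with matplotlib 3.10.9.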

Additional observations from a re-analysis of the deposited data

Results flagged for a closer look

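Fth1 was higher in Sca1- in the first deposit set and higher in Sca1+ in the second. The Sca1+ minus Sca1- difference was -0.14 in the first set, from 1 array of each fraction, and 0.17 in the second, where the Sca1+ array lay above both Sca1- arrays. The difference between the sets was not tested. Opposite directions of this kind were seen for 30.1% of the 8591 genes tested.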

How the results depend on the processing

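In the Sca1 comparison 0 of the 6 genes passed under any of 19 alternatives, the last of them, without both first-set sorted arrays, chosen after seeing the data. Over these, Blvrb (0.30 to 1.33), Slc11a1 (0.23 to 1.10) and Slc40a1 (-1.66 to -0.22) kept their direction. Leaving out 1 array, the ranges were -0.80 to 1.23 for Hmox1, -0.30 to 1.04 for Tfrc and -0.029 to 0.31 for Fth1. Hmox1 turned to -0.49 without Sca1+ replicate 2 and -0.80 without Sca1- replicate 1, and Tfrc to -0.30 without Sca1- replicate 1. Fth1 turned to -0.024 with the replicate number as a block (replicate block) and without Sca1- replicate 3, and to -0.029 without Sca1+ replicate 1. Over all genes, 85 passed with the deposit set as a block, 80 with the replicate block and 1 with no filter on low signal. Same-numbered arrays deviated together (r = 0.57 and 0.48 over genes), but the numbers are not stated to pair samples. Same-numbered arrays also share a deposit set, so these values cannot tell pairing by number apart from the set. Of the 6 genes, the number at least 2-fold apart was 0 for feeder against unsorted with median scaling or the mean of probe sets. Unsorted against sorted gave 1 lower (Fth1) with median scaling and 1 higher (Tfrc) with the mean of probe sets, and 0 to 1 leaving out 1 sorted array. Feeder against sorted gave 2 lower (Slc40a1, Fth1) with median scaling, 2 higher (Hmox1, Tfrc) with the mean of probe sets, 0 to 2 leaving out 1 sorted array and 0 without both first-set arrays. Median scaling moved the median of all genes to 0.29, -0.38 and -0.27 in these comparisons, against -0.13, 0.28 and 0.01. The causes were not tested. The number of arrays limits the precision.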
